A study of Mus musculus with 7 samples.

Results

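The genes described here are those of the antibody constant regions and of antibody secretion: the heavy chain genes Ighm, Ighd, Igha, Ighg1, Ighg2b, Ighg2c and Ighg3, the kappa light chain gene Igkc, and the plasma cell genes Jchain and Mzb1. These 10 genes were taken by name from the 33864 genes listed in 3 count tables, 1 per group of mice. All 10 are listed for the i4F mice. The tables of the other groups list 9 of them and leave out Ighg1, so no Ighg1 level is known there. The values are unique molecular identifiers (UMIs, counts of captured transcripts) in single pancreatic cells of 7 C57BL/6 mice aged 2 months, with 1 library per mouse, so that mice are the replicates.

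Wild-type mice drank doxycycline at 1 mg/ml for 7 days (WT, n = 2). The i4F mice, labelled i4F-B, had the same doxycycline (i4F, n = 3). They carry the rtTA transactivator in Rosa26, which is active in nearly every tissue, and a doxycycline-inducible cassette of the reprogramming factors Oct4, Sox2, Klf4 and Myc, so the factors are not limited to any pancreatic cell type. The third group was wild-type mice given caerulein, a cholecystokinin analogue that injures acinar cells, in 7 injections of 100 µg/kg a day on 2 days (caerulein, n = 2). Doxycycline is not labelled for the caerulein mice, so any effect of doxycycline and of caerulein cannot be told apart when caerulein is compared with WT. Of the 58473 cells, 3754 carried a deposited label that starts with B_lymph or Follicular_B, and they are called B-labelled cells here: 47 and 111 in WT, 477, 370 and 1357 in i4F, and 994 and 398 in caerulein, in the order of the replicate numbers.

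A B cell joins a variable region to a constant region, and the heavy chain constant region sets the antibody class. Resting B cells make IgM (Ighm) and IgD (Ighd) from the same locus by alternative splicing. Class switch recombination deletes the DNA between the variable region and a downstream constant gene, so that the cell then makes IgG (the Ighg genes) or IgA (Igha). Each B cell normally uses a single heavy chain allele and either a kappa (Igkc) or a lambda light chain. Plasma cells, the end stage of the lineage, secrete antibody in bulk, while Jchain links IgM and IgA units into polymers and Mzb1 is an endoplasmic reticulum protein that helps IgM assembly and secretion.

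The heavy chain genes lie side by side on the minus strand of mouse chromosome 12 (GRCm38), from Ighm at chr12:113418558-113422730 through Ighd (chr12:113406604-113416324), Ighg3 (chr12:113356224-113361232), Ighg1 (chr12:113325240-113330523), Ighg2b (chr12:113302965-113307933) and Ighg2c (chr12:113285325-113288932) to Igha at chr12:113254830-113260236. Igkc is at chr6:70726435-70726966 on the plus strand and Jchain at chr5:88519809-88527891 on the minus strand. The last 60 coding bases of the secreted forms, which end the last constant exon, are shown because the classes must be told apart near the 3′ end, where this assay reads transcripts, and because Ighm and Igha carry there the cysteine through which Jchain links their chains. They span chr12:113420867-113420926 (Ighm), chr12:113258768-113258827 (Igha), chr12:113328976-113329035 (Ighg1), chr12:113306389-113306448 (Ighg2b), chr12:113287389-113287448 (Ighg2c) and chr12:113359665-113359724 (Ighg3). In Ighm and Igha, capitals mark the TGC cysteine codon before the last sense codon and the TGA stop. In Ighg2b, Ighg2c and Ighg3, they mark the bases that differ from Ighg1.
Ighm: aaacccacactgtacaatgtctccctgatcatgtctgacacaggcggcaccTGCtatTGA
Igha: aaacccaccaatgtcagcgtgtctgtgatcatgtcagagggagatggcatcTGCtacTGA
Ighg1: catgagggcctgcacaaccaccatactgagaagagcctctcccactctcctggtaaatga
Ighg2b: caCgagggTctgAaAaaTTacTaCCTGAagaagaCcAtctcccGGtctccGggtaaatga
Ighg2c: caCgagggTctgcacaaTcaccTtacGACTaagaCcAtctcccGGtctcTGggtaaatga
Ighg3: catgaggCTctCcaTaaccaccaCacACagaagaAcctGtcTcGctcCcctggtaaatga
Over these 60 bases Ighg2b, Ighg2c and Ighg3 differed from Ighg1 at 17, 14 and 12 positions. Over the whole coding sequence the IgG genes were 73.5% to 85.6% identical to each other, with Ighg2b and Ighg2c closest, and 41.1% to 47.2% identical to Ighm or Igha.

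The libraries held 4327 to 15138 cells and 15469018 to 64784216 UMIs. The library of i4F 3 stood apart: 17.8% of its cells were B-labelled against 4.50% and 4.86% in the other i4F mice, and without it the number of genes that edgeR called between i4F and WT over all cells went from 0 of 18340 (0.0%, although 6383 had an unadjusted p under 0.05 and DESeq2 called 23.7%) to 9543 of 19180 (49.8%). Library names fall into a series AL (WT 1 and the i4F mice) and a series AM (WT 2 and the caerulein mice), so each comparison with WT has 1 WT mouse within a series, while the i4F and caerulein mice have no series in common. No member count changed with the series as a term, which between i4F and caerulein rests on the 2 WT mice. The labels were then set against markers. In WT, all 8 B cell markers were found in at least 10% of the B-labelled cells of each mouse. In caerulein, 0 of the 8 reached that share, 66 of 994 and 21 of 398 cells had a UMI of a subset of these markers that holds Cd79a, Cd79b and Ms4a1 (Ly6d, which is outside the subset, was in 5.84% and 7.79%), and the summed level of the list was 292 and 333 CPM (UMIs per 1000000 UMIs of the cells) against 8426 and 6530 in WT. Macrophage markers instead stood at 8457 and 8653 CPM in these cells, against 23.2 and 23.8 in WT. In the B_lymphocytes label of i4F they stood at 1482, 1612 and 249 CPM. A UMI of the marker subset was seen in 89.9%, 77.8% and 96.3% of the i4F B-labelled cells, against 100% in both WT mice. By both values i4F stood between WT and caerulein. The median UMIs of the B-labelled cells were 2886 and 2066 in WT, 644, 480.5 and 1070 in i4F, and 2205.5 and 1181 in caerulein. The part of this depth in the share with a marker UMI was not tested. By the summed level of the 8 B cell markers, the i4F B_lymphocytes label (7576, 6106 and 8896 CPM) overlapped WT. Dendritic cell markers stood at 490 and 338 CPM in caerulein, 454 and 274 in WT and 568, 870 and 580 in the i4F B_lymphocytes label. The Follicular_B label was given only to 118 i4F cells. Of the 8 B cell markers, 4, 3 and 4 were in at least 10% of them, with Cd79a in 87.5%, 74.1% and 91.0%, and the summed level was 2427, 1525 and 1791 CPM against 7576, 6106 and 8896 in the B_lymphocytes label of the same mice. Plasma cell markers were higher in them: 8, 7 and 8 of the list of 8 were in at least 10% of the cells, with 20694, 16865 and 24405 CPM against 769, 687 and 896 in the B_lymphocytes label. Most of these sums came from the members Jchain and Mzb1, which the list holds. Over the other 6 markers they were 1333, 1009 and 1409 CPM against 252, 208 and 252, with 6, 5 and 6 of the 6 in at least 10% of the cells against 0, 0 and 1. These cells are called plasma cell-like below, and the caerulein cells are called by their label only. Barcodes shared between libraries numbered 3 to 39 per pair, and 0 were B-labelled in both. The barcode of 1 antibody-rich cell (defined below) was shared, between WT 1 and i4F 3.

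The first question was how much of each gene the whole pancreas sample held. Ighm, the IgM heavy chain, had 443 and 1194 CPM in WT, 322, 515 and 3169 in i4F, and 53.1 and 14.0 in caerulein. Both caerulein mice lay below every other mouse, whereas i4F 1 and i4F 2 lay within or below the WT range and i4F 3 above it. Igkc, the kappa light chain shared by all classes, had 1823 and 3983 CPM in WT, 1224, 1484 and 15566 in i4F, and 165 and 5.03 in caerulein, again with the caerulein mice lowest and i4F 3 highest. Jchain had 141 and 245 CPM in WT, 43.2, 54.5 and 621 in i4F and 4.89 in caerulein 1, with 0 UMIs in caerulein 2. Mzb1 had 17.5 and 36.6 CPM in WT, 16.3, 7.10 and 164 in i4F, and 4.97 and 0.760 in caerulein. For both secretion genes i4F 1 and i4F 2 lay below both WT mice and i4F 3 far above them. Ighd, the gene of resting B cells, was even in 4 mice, with 2.44 and 2.96 CPM in WT and 2.63 and 2.68 in i4F 1 and i4F 2, then 39.4 in i4F 3 and 0.139 and 0.0585 (9 UMIs and 1 UMI) in caerulein. In such sums, fewer cells of a type and less RNA per cell cannot be told apart.

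**Figure D1:**
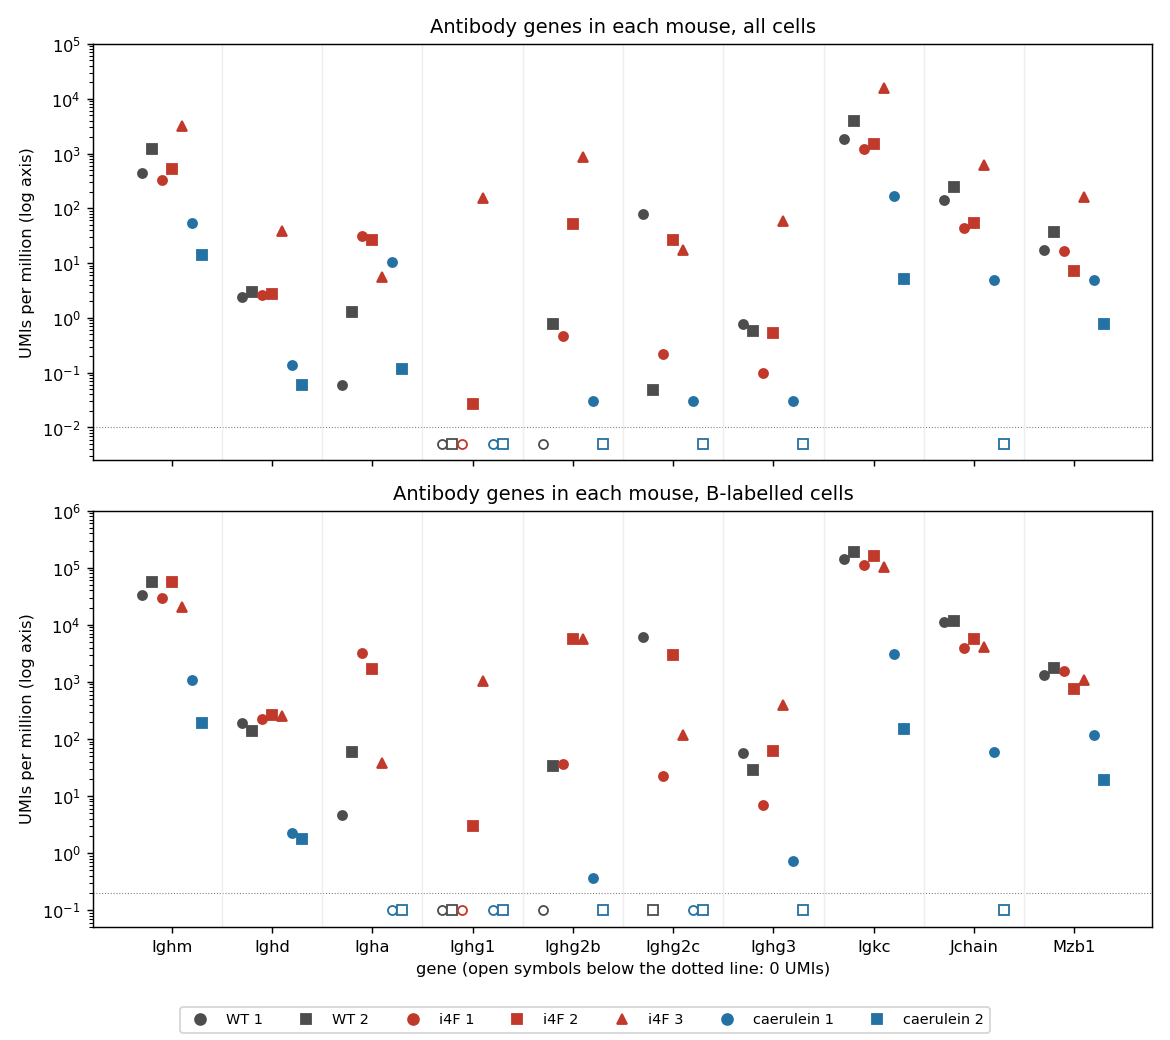
Level of the 10 genes in each mouse over all cells (upper panel) and over B-labelled cells (lower panel), in UMIs per 1000000 UMIs on a log axis, each symbol a mouse. Over all cells the caerulein mice are lowest and i4F 3 is highest for Ighm, Ighd, Igkc, Jchain and Mzb1; open symbols below the dotted line have 0 UMIs, which for Ighg1 in WT and caerulein means that the gene is not listed.

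No member passed the test over all cells between i4F and WT: edgeR's quasi-likelihood test with Benjamini-Hochberg adjustment called 0 of the 9 members tested, with 2 at an unadjusted p under 0.05, and DESeq2 called 3. The log2 difference of i4F over WT was 1.04 ± 1.14 (SE) for Ighm, 1.42 ± 1.62 for Igkc, 0.66 ± 1.57 for Jchain, 1.55 ± 1.42 for Mzb1 and 2.81 ± 1.33 for Ighd. Without i4F 3 these became -0.63, -0.75, -1.62, -0.84 and 0.35, so that the sign turned for the first 4, again with none of the 5 past the threshold. Igha and Ighg2b were called higher without i4F 3 (log2 difference 5.72 and 6.26, edgeR adjusted p = 0.024 and 0.046), beside 23.9% of all genes called higher. In i4F 2, 1 cell held 1888 of the 1915 Ighg2b UMIs, and i4F 1 had 28. Of the Igha UMIs, 1 cell held 1901 of 1923 in i4F 1, and 2 cells held 551 and 304 of 977 in i4F 2. These calls rest mainly on single cells and are a description.

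Against WT, caerulein gave 1666 of 18340 genes called over all cells (9.08%, 7130 at an unadjusted p under 0.05, DESeq2 29.9%), and 0 of 9 members, with 4 at an unadjusted p under 0.05 and 5 called by DESeq2. The calls were 944 higher and 722 lower, and 652 and 2262 without TMM scaling, which moved the median of all genes from -0.06 to -0.45 and called 0 members. Ighm differed by -4.20 ± 1.38 on the log2 scale (edgeR adjusted p = 0.082) and Jchain by -5.77 ± 2.08 (edgeR adjusted p = 0.097). Without i4F 3, whose spread enters the shared fit, edgeR called 6 members lower beside 25.0% of all genes (46.4% in either direction). These were Ighm (-4.20, edgeR adjusted p = 0.0078), Ighd (-4.07), Ighg3, Igkc (-4.65), Jchain (-5.70) and Mzb1 (-2.71). In the CPM values 7 members lay lower in both caerulein mice than in both WT mice, as did 52.1% of all genes tested. Between i4F and caerulein, edgeR called 0 of 18340 genes (0.0%, 2637 at an unadjusted p under 0.05, DESeq2 5.4%). Of the 9 members tested there, 8 had an unadjusted p under 0.05, DESeq2 called 7, and 8 lay higher in every i4F mouse than in both caerulein mice, against 16.7% of all genes tested. These comparisons share mice and are not independent.

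Within the B-labelled cells the order was different. Ighm had 33889 and 55424 CPM in WT and 29246, 56014 and 20795 in i4F, which overlapped. Igkc had 141595 and 190243 CPM in WT and 113602, 159715 and 103712 in i4F, and these overlapped too. Jchain had 3952, 5742 and 4096 CPM in i4F against 10997 and 11691 in WT, and did not pass the test (log2 difference -1.30 ± 0.74, edgeR adjusted p = 0.64). Ighd had 226, 262 and 251 CPM in i4F against 190 and 136 in WT (log2 difference 0.62 ± 0.24, edgeR adjusted p = 0.56). Ighd and Ighg2b (7.58 ± 2.00, edgeR adjusted p = 0.46) lay higher, and Jchain lower, in every i4F mouse than in both WT mice. The share of all genes that lay apart in this way is not given here, so this is a description only. Of 6425 genes tested, edgeR called 1 between i4F and WT (0.0156%, 555 at an unadjusted p under 0.05), which was Reg3g, a secreted lectin, and 0 of 9 members, with 3 at an unadjusted p under 0.05. DESeq2 called 0.436% of genes and 0 members. Leaving out i4F 1 added Ighg2b as a call (log2 difference 8.16, edgeR adjusted p = 0.023, 0.0528% of genes called), and leaving out i4F 3 added Igha (5.98, edgeR adjusted p = 0.012, 0.429% of genes called). Of the Ighg2b UMIs of i4F 2, 1 cell held 1888 of 1915. In i4F 3, 8 cells had at least 20 of the 13164. For Igha, 1 B-labelled cell held 1901 of the 1923 UMIs of i4F 1, and 1 held 551 of the 977 of i4F 2. These calls therefore describe few cells.

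The plasma cell-like cells have a label of their own in i4F only. In WT, most cells with many antibody transcripts carried the B_lymphocytes label, and 1 antibody-rich cell of WT 2 was labelled Endothelial_1. Leaving out the 118 cells labelled Follicular_B takes such cells from i4F and leaves 4 and 16 antibody-rich cells in the WT label, so lower antibody transcripts in i4F are then set by the choice of cells. The log2 differences in that set, -4.07 for Ighm and -8.37 for Jchain beside 0.373% of 5627 genes called, are given as a description. In the 118 cells Ighm stood at 100718, 139155 and 88120 CPM and Igkc at 402819, 399222 and 461556. Jchain stood at 14837, 14678 and 19892 CPM there and was detected in 23 of 24, 27 of 27 and 62 of 67 cells.

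In the caerulein cells with the B label, 5 members were called lower than in WT, where edgeR called 16.4% of genes in either direction and 8.23% lower (DESeq2 12.0% in either direction, 7 members). Ighm had 1071 and 194 CPM and fell by 6.43 on the log2 scale (SE 0.90, edgeR adjusted p = 0.0027). Igkc had 3101 and 150 CPM and fell by 6.96 (SE 1.21, edgeR adjusted p = 0.0069). Jchain, with 58.1 and 0 CPM, fell by 8.69 (SE 1.15, edgeR adjusted p = 0.0022), and Mzb1, with 115 and 19.4 CPM, fell by 4.73 (SE 0.72, edgeR adjusted p = 0.0038). Ighd, with 2.21 and 1.76 CPM from 6 UMIs and 1 UMI, fell by 6.44 (SE 0.38, edgeR adjusted p = 1.1e-04). In CPM, 7 members lay below both WT mice, as did 20.6% of genes tested. Without TMM scaling the calls went from 523 higher and 529 lower to 821 and 352, the median of all genes moved from -0.03 to 0.29, and again 5 members were called. Without i4F 3, 8 members were called lower beside 10.6% of genes (22.5% in either direction). They included Ighg2c and Igha, which had 0 CPM in both caerulein mice. Ighg2c had 0 CPM in WT 2 as well, and 1 cell held 1330 of its 1331 UMIs in WT 1. Igha had 4.63 to 59.6 CPM in WT. The calls of Ighg2c and Igha are therefore a description.

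The macrophage and B cell marker sums given above differed between the same groups, and their part in these differences was not tested. Among cells with a UMI of the marker subset given above (66 and 21 in caerulein), edgeR called 0.463% of 4100 genes and 1 member, Ighd, at a log2 difference of -2.86 ± 0.46 (edgeR adjusted p = 0.039). Ighd had 24.7 to 46.4 CPM in caerulein there, from at most the few Ighd UMIs of the B label given above. Of the uncalled members, Ighm had 1346 to 16406 CPM against 33889 to 55424 in WT. Igkc had 3482 to 52017 CPM against 141595 to 190243, and Mzb1, with 279 to 1885 against 1316 to 1763, overlapped. Without the antibody-rich cells described next, which caerulein 2 lacks, 7 members were called lower beside 9.32% of genes (18.2% in either direction), among them Ighm at -4.34 and Igkc at -6.73. Of the other 5, Jchain and Ighg2b rested on 1 caerulein UMI each and Ighg3 on 2. This set is cut by the UMIs of constant region genes that are then tested, so its calls are a description. Doublets were not called by any tool here, and their part in these values was not tested.

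**Figure D2:**
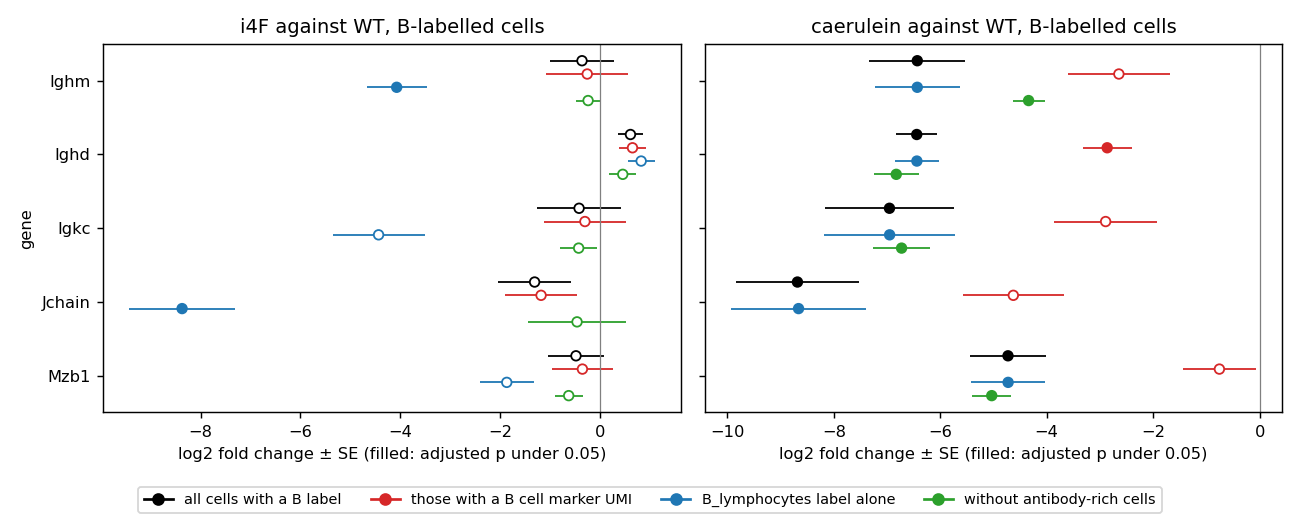
Log2 difference from WT (horizontal axis, with the standard error as a bar) of 5 members in the B-labelled cells, for i4F on the left and caerulein on the right; colours give the cell set used, and filled points have an edgeR adjusted p under 0.05. Over all cells with a B label (black) the 5 i4F points are open and the 5 caerulein points are filled and below 0, while among cells with a UMI of the subset of B cell markers (red) only Ighd in caerulein is filled. The B_lymphocytes label alone (blue) lacks the plasma cell-like cells of i4F but keeps the antibody-rich cells of WT. Without antibody-rich cells (green), a set cut by the UMIs of constant region genes, Jchain is not drawn for caerulein, where it had 1 UMI.

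Most antibody transcripts came from few cells. A cell was called antibody-rich where the 8 constant region genes made up at least 5% of its UMIs and at least 20 UMIs. There were 4 and 17 such cells in WT, 30, 31 and 72 in i4F and 7 and 0 in caerulein, 161 in all, of which 151 were B-labelled. They held 89.7% to 96.0% of all constant region UMIs in each mouse that had any. As a share of all cells this was 0.0924% and 0.269% in WT, 0.306%, 0.377% and 0.946% in i4F and 0.0462% and 0% in caerulein, where 0 of 7039 cells allows up to 0.0524% by the exact binomial interval. The i4F shares lay above and the caerulein shares below both WT shares. With at least 2% of UMIs in place of 5% the i4F order was lost, at 0.561%, 0.414% and 4.40% against 0.393% and 0.806% in WT, and the caerulein shares (0.0462% and 0%) were again below. The exact two-sided permutation test gave p = 0.2 for i4F and p = 0.333 for caerulein against WT, the smallest values that 3 against 2 and 2 against 2 mice allow. The mean i4F share was 0.362 percentage points above WT, and 0.161 without i4F 3. At the 2% minimum the difference was 1.19 points, and -0.112 without i4F 3. For caerulein the difference was -0.157 points, and -0.0693 without WT 2. Among B-labelled cells, antibody-rich cells made up 8.51% and 14.4% in WT and 5.66%, 7.84% and 5.08% in i4F, so that by this denominator i4F lay below WT (exact permutation p = 0.2).

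**Figure D3:**
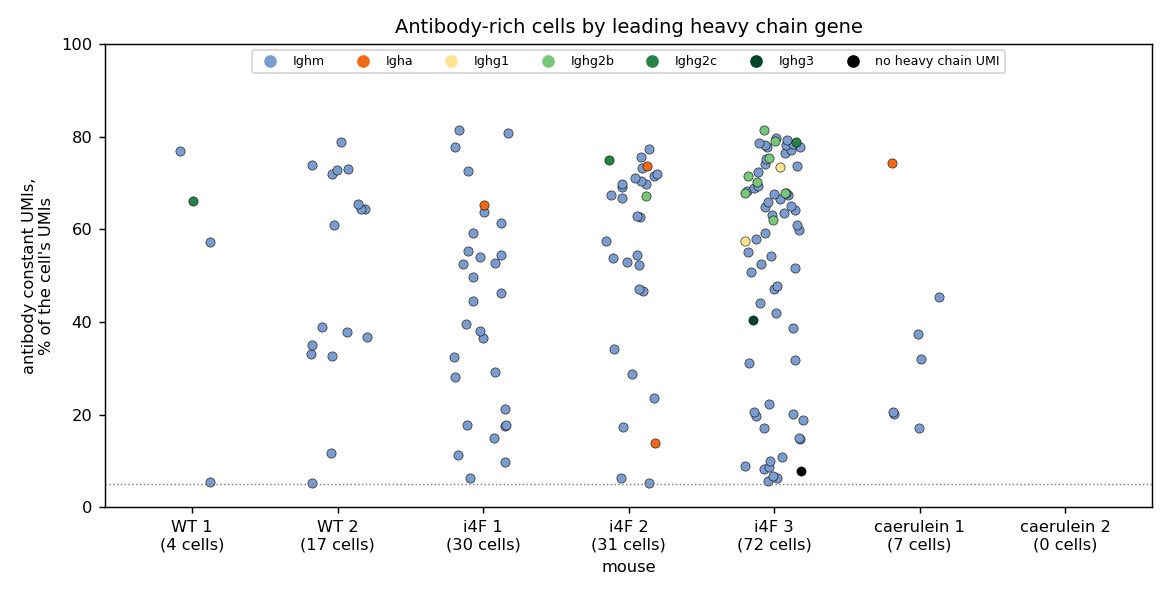
Antibody-rich cells of each mouse, 1 point per cell, by the percent of the cell's UMIs that came from antibody constant genes (vertical axis) and coloured by the heavy chain gene with the most UMIs; sideways position within a mouse carries no value. Every point lies above the dotted line at 5%, and Ighm leads in most cells of every mouse that has any.

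In nearly every antibody-rich cell 1 heavy chain gene dominated. Of the 160 cells with a heavy chain UMI, 121 had UMIs of a single heavy chain gene and 39 of more. Ighm led in 141 of the 161 cells, Ighg2b in 9, Igha in 4, Ighg2c in 3, Ighg1 in 2, Ighg3 in 1 and Ighd in 0, while 1 cell had no heavy chain UMI. Of the 157 cells with at least 20 heavy chain UMIs, the leading gene made up at least 95% of them in 156 and at least 99% in 146. In the 15 cells led by an IgG gene, UMIs of the other IgG genes numbered 80 beside 20441 of the leading gene (0.390% of both together). How often reads fitted more than 1 of the similar sequences shown above was not tested. Light chains were less exclusive, with at least 95% kappa in 137 cells, at least 95% lambda in 12 and neither in 12. Among the last, 1 cell of i4F 2 had 1646 Igkc and 1564 lambda UMIs. The 12 lambda cells were 2, 1 and 9 of the 30, 31 and 72 antibody-rich cells of the i4F mice. WT (4 and 17 antibody-rich cells) and caerulein (7 and 0) had 0. The definition of these cells counts Igkc but no lambda gene, so lambda cells had to pass mainly on heavy chain UMIs. The lambda counts depend on that definition and, with so few WT and caerulein cells, are a description.

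The secretion genes marked these cells unequally. Jchain was detected in 147 of the 161 cells and Mzb1 in 148. Antibody-rich cells held 97.5% to 99.6% of all Jchain UMIs in the 6 mice that had them, but 52.2% to 80.5% of Mzb1 UMIs. Jchain was also found in cells of classes that it does not link: all 9 Ighg2b cells, all 3 Ighg2c cells and both Ighg1 cells had Jchain UMIs, with medians of 89.0, 43.0 and 184 per cell against 87.0 in Ighm cells and 106.5 in Igha cells. The 1 Ighg3 cell had 0. Ighd was almost absent from them, with at most 0.629% of a mouse's Ighd UMIs.

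Isotype shares were taken as percent of the UMIs of the listed heavy chain genes. Since each transcript is counted from its 3′ end, they were not divided by gene length. IgM made up 84.3% and 99.5% over all cells in WT, 90.2%, 82.8% and 73.8% in i4F and 83.5% and 98.8% in caerulein. IgG ranged widely within groups, at 15.2% and 0.117% in WT, 0.217%, 12.6% and 25.2% in i4F and 0.146% and 0% in caerulein. The i4F shares include Ighg1, which is not listed for the other groups and made up at most 3.55% in an i4F mouse. IgA was 0.0113% and 0.105% in WT, 8.89%, 4.17% and 0.131% in i4F and 16.2% and 0.823% in caerulein, and so was higher in each i4F and caerulein mouse than in either WT mouse. The value of caerulein 2 was 2 of 243 UMIs. In the B-labelled cells IgA was 0% in both caerulein mice (0 of 2920 and 0 of 111 UMIs) against 0.0115% and 0.107% in WT. IgD stayed between 0.218% and 0.917% in all 7 mice. None of the 4 classes passed the exact permutation test over all cells, with IgA at p = 0.2 (adjusted 0.533) for i4F and p = 0.333 (adjusted 0.667) for caerulein, the smallest p that these designs allow. In the B-labelled cells the smallest exact permutation p was again 0.2 for i4F and 0.333 for caerulein.

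**Figure D4:**
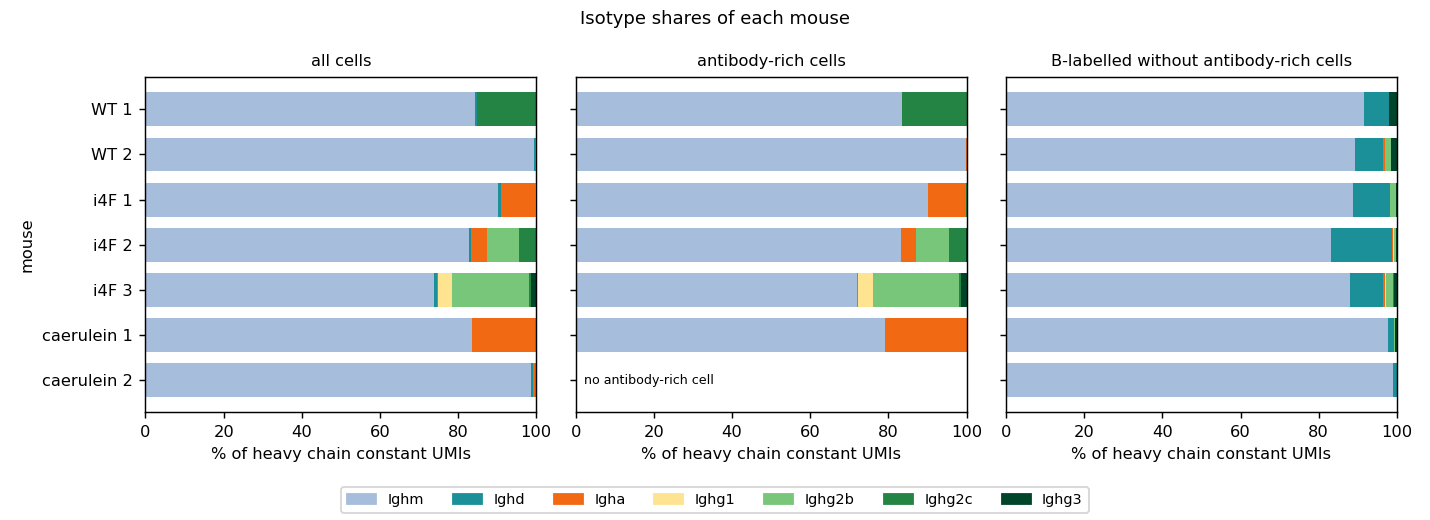
Heavy chain UMIs of each mouse by gene, as a percent of all its heavy chain UMIs, over all cells, antibody-rich cells, and B-labelled cells without antibody-rich cells. Ighm fills most of each bar, the switched part differs between mice of a group in the first panels, and Ighd takes more of the bar in the last panel than over all cells.

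Single cells set several of the switched shares. Of the 1331 Ighg2c UMIs of WT 1, 1330 came from 1 cell. Of the 1923 Igha UMIs of i4F 1, 1901 were in 1 cell, and 2 cells held 551 and 304 of the 977 in i4F 2. The IgA share of caerulein 1 was 1 cell labelled Macrophages_2, with 665 of the 667 Igha UMIs beside 2153 Igkc and 153 Jchain UMIs. In i4F 3, 2 cells held 1506 and 836 of the 2361 Ighg1 UMIs and 1 cell held 842 of the 913 Ighg3 UMIs, while 8 cells had at least 20 of the 13164 Ighg2b UMIs. Counting intervals on these shares cover counting error only, and a share from 1 cell describes that cell.

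Leaving out the antibody-rich cells showed the remaining B-labelled cells. In them Ighm had 3685 and 3275 CPM in WT and 2949, 2327 and 3304 in i4F, and Igkc 10058 and 12437 CPM in WT and 7531, 5384 and 11347 in i4F. Of the members, edgeR called 0 between i4F and WT in this set (0.0864% of all genes), with 2 at an unadjusted p under 0.05. The set is cut by the UMIs of constant region genes that are then tested, so its values are a description. Ighd had 262 and 260 CPM in WT and 309, 438 and 316 in i4F, which was short of the threshold. Mzb1 ran the other way, from 658 to 832 CPM in WT and from 403 to 553 in i4F. So did Ighg3, from 50.2 to 76.8 CPM in WT and from 5.04 to 28.4 in i4F. The lowest Ighg3 value, of i4F 2, rests on few UMIs. That mouse had 20 Ighg3 UMIs over all cells, 16 of them in 1 antibody-rich cell. IgD made up 6.52% and 7.10% of their heavy chain UMIs in WT and 9.32%, 15.6% and 8.41% in i4F. A UMI of both Ighm and Ighd was seen in 44.2% and 33.7% of these cells in WT and in 16.4%, 12.9% and 28.6% in i4F, and the 5 shares rank as the median UMIs of the B-labelled cells do (2886 and 2066 in WT, 644, 480.5 and 1070 in i4F). Switched genes were rare in them: 4.65% and 5.26% of cells in WT and 2.22%, 1.17% and 7.30% in i4F had such a UMI.

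Lambda transcripts made up more of the light chain UMIs in i4F over all cells (Iglc1 to Iglc4 together, 9.96%, 6.75% and 14.5%) than in WT (2.31% and 2.23%). In caerulein they made up 4.62% and 36.3%, the latter from 49 lambda and 86 Igkc UMIs. Few cells set these shares: 2 cells held 7088 of the 8194 lambda UMIs of i4F 1 and 2 held 3370 of the 4056 of i4F 2. Without the 2 cells with the most lambda UMIs of each mouse, the shares were 1.47%, 1.25% and 10.6% in i4F, 1.70% and 1.89% in WT and 1.74% and 30.3% in caerulein, so that i4F 1 and i4F 2 then lay below both WT mice. In the B-labelled cells that were not antibody-rich the order was not kept, with 27.1% and 22.2% in WT and 12.9%, 10.3% and 21.7% in i4F.

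Detection outside the B label was used as the background for these genes. In WT, Ighm was found in 93.6% and 94.6% of B-labelled cells (median 2886 and 2066 UMIs) and in 0.357% and 1.24% of endothelial cells (median 601 and 1483 UMIs). With each cell thinned to 500 UMIs, which left out 1 and 0 B-labelled and 520 and 275 endothelial cells, these became 74.1% and 74.8% against 0.135% and 0.454%. Ighm was not at this background in all other cells. It was found in 43.3% and 30.0% of WT macrophages (median 5778.5 and 2242 UMIs, thinned 6.71% and 8.23%) and in 23.6% and 14.9% of WT NK and T cells (median 2247.5 and 1667 UMIs, thinned 5.72% and 5.25%).

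Igkc did not accompany it there. Igkc was found in 1.92% and 5.25% of the same macrophages, and of the 45 and 154 macrophages with an Ighm UMI, 0 and 9 also had one of Igkc. The ratio of Ighm to Igkc UMIs was 47.0 (94 and 2 UMIs) and 5.69 (205 and 36 UMIs) in WT macrophages. It was 0.366 and 0.263 in the WT B cells that were not antibody-rich. In i4F the macrophage ratio was 0.376, 0.273 and 0.461. In caerulein, macrophages had Ighm in 5.04% and 3.63% of cells, with a ratio of 5.95 in caerulein 1 and 0 Igkc UMIs in caerulein 2. The caerulein cells with the B label had Ighm in 23.9% and 19.3%, Igkc in 3.82% and 4.27%, and a ratio of 2.17 and 1.29 outside antibody-rich cells (thinned Ighm 8.60% and 9.34%, median 2205.5 and 1181 UMIs). In other classes of caerulein 1 the ratio was 2.33 from 7 and 3 UMIs in endothelial, 1.76 in stellate, 1.13 in acinar and 0.714 in ductal cells.

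**Figure D5:**
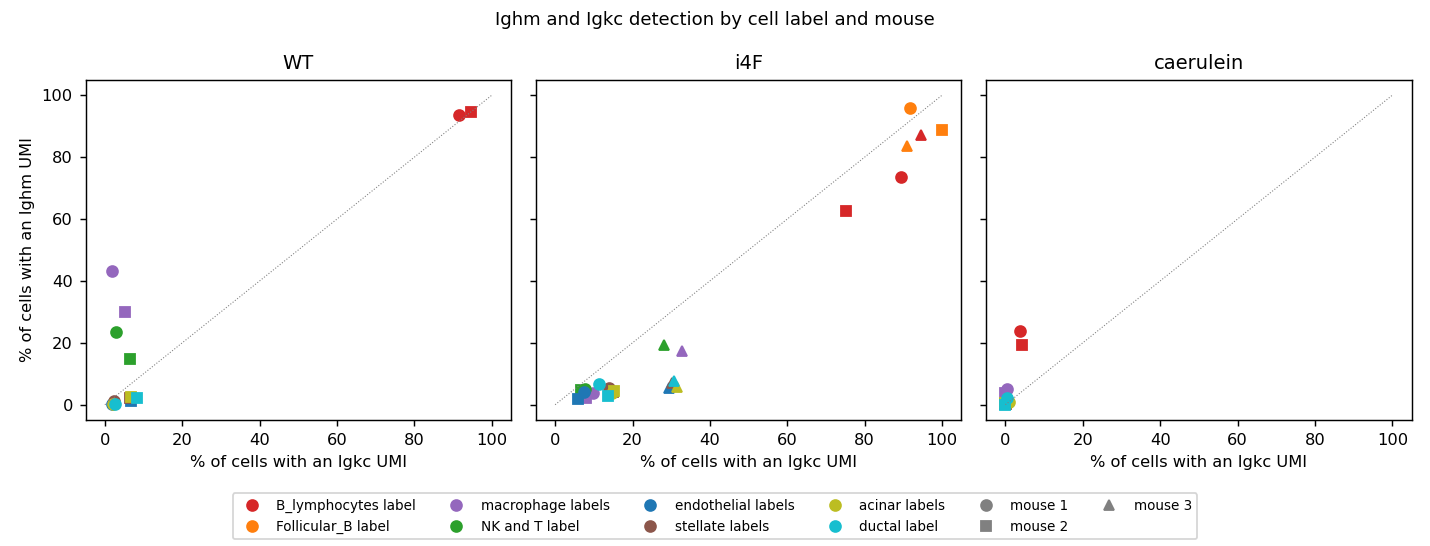
Percent of cells with an Igkc UMI (horizontal axis) against percent with an Ighm UMI (vertical axis), by cell label (colour) and mouse (symbol), in a panel for each group; the dotted line marks equal shares. WT macrophage and NK and T labels and the caerulein B_lymphocytes label lie well above the line, and the non-B labels of i4F 3 (triangles) lie below it, at 28.2% to 32.9% on the Igkc axis.

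Igkc in turn was spread over the non-B classes of i4F 3. It was found in 28.2% to 32.9% of its macrophages, NK and T, acinar, ductal, endothelial and stellate cells, against 6.04% to 15.2% in i4F 1 and i4F 2, 1.92% to 8.37% in WT and at most 0.908% in caerulein. In i4F 3 the median UMIs of these classes ran from 606 to 2930.5, and with 500 UMIs per cell the shares were 8.65% to 16.6%. Whether free RNA gave these UMIs was not tested.

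Further genes of the pathway were counted from lists on class switching, the plasma cell programme, antigen and antibody receptors, switch cytokines with survival and homing factors, and other antibody constant genes. Over all cells, edgeR called 0 genes of all 5 lists between i4F and WT (6 of 14, 6 of 18, 10 of 19, 5 of 15 and 2 of 5 tested at an unadjusted p under 0.05, and DESeq2 called 4, 5, 9, 4 and 1). Of all 18340 genes, 6383 had such a p there, edgeR called 0 and DESeq2 called 23.7%. Between i4F and caerulein edgeR called 0 as well (1, 3, 8, 4 and 4 at an unadjusted p under 0.05, DESeq2 0, 1, 4, 3 and 2). Of all genes, 2637 had such a p there, edgeR called 0 and DESeq2 called 5.4%. Against WT, where 5.15% of genes were called higher, 3 of 14 switching genes rose in caerulein: Ung, the uracil glycosylase that acts after AID (log2 difference 1.53), the exonuclease gene Exo1 (3.65) and Mad2l2, a shieldin subunit (1.16). Of 19 receptor genes 7 rose, and they were led by Fcgr1 (4.57), Fcer1g (3.91) and Fcgr3 (3.52), which encode Fc receptor chains found on myeloid cells. Cells with a macrophage label numbered 7619 of 15138 and 2836 of 7039 in caerulein against 104 of 4327 and 514 of 6326 in WT, and their part in these counts was not tested. Il10 rose (5.52), and none of 18 plasma cell genes was called, with 10 at an unadjusted p under 0.05 (7130 of all 18340 genes) and 9 called by DESeq2 (29.9% of all genes).

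In the B-labelled cells edgeR called 0 list genes between i4F and WT (0 of 7, 3 of 18, 3 of 18, 3 of 11 and 4 of 4 tested at an unadjusted p under 0.05, with 1 receptor gene and 1 other constant gene called by DESeq2). Of all 6425 genes, 555 had such a p there and DESeq2 called 0.436%. Between caerulein and WT, edgeR called 8.23% of genes lower and DESeq2 called 12.0% in either direction. There 9 of 18 plasma cell genes fell (DESeq2 8), with a list median of -1.43 against -0.03 for all genes tested. They included Tnfrsf17, the survival receptor BCMA (-6.70), and Pou2af1, a coactivator of B cells (-5.58). Of 18 receptor genes 9 fell (DESeq2 8), among them Ms4a1 (-6.62) and the IgM receptor gene Fcmr (-6.32), and 3 rose. Among these 3, Fcgr1 and Fcgr3 had 0 UMIs in both WT mice and 103 to 141 CPM in caerulein. Of 11 cytokine, survival and homing genes 3 fell, which were Cxcr5 (-6.08), the BAFF receptor gene Tnfrsf13c (-4.87) and Tnfrsf13b (-1.99), and 1 rose, Ccr9, which had 0 UMIs in both WT mice. All 4 other constant genes tested fell, namely Iglc1 (-4.99), Iglc2 (-4.99), Iglc3 (-5.60) and the surrogate light chain gene Vpreb3 (-5.17). The macrophage markers given above moved with each of these counts, and their part was not tested.

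Likeness to a member was ranked over 40 pairs of condition and label, from 11207 genes with a mean of at least 5 CPM, leaving the members themselves and all other genes whose symbol starts with Igh, Igk or Igl out of the order. Nearest to Ighm were Cd79b (Pearson r = 0.86), Pou2af1 (0.80), Tnfrsf13c (0.80), A530040E14Rik (0.78) and Ly6d (0.77). Igkc was nearest to Ms4a1 (0.81) and Fcmr (0.80), and Jchain to Prg2 (0.80) and Pou2af1 (0.77). Some members were nearer than these, with r = 0.90 between Ighm and Igkc, 0.93 between Igkc and Jchain, 0.88 between Ighm and either Jchain or Mzb1, and 0.87 between Jchain and Mzb1. The other members were less near to Ighm, from 0.55 for Ighg1 to 0.74 for Ighg2b. The pairs share libraries and depth, so these values are descriptions.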

How the data were processed

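Whole pancreas was dissociated and run on the 10x 3′ v3 assay. The authors aligned reads to mm10 with Cell Ranger, corrected ambient RNA with SoupX, excluded cells with under 150 genes or over 5% mitochondrial reads, and deposited UMI counts with cell labels, UMI totals and the percent of mitochondrial counts per cell. Whether the deposited counts precede the SoupX step is not given in the sources used here. If ambient RNA was subtracted, low values would be understated.

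From the deposited counts, UMIs were summed per mouse and tested with edgeR 4.0.16 in R 4.3.3 (glmQLFit, TMM, filterByExpr, Benjamini-Hochberg over all genes, threshold 0.05, all 7 mice in 1 fit), which was tested on simulated data. The simulation gave every gene the same spread and held no outlying mouse, so it does not measure power in these data. Standard errors are the log2 difference divided by the root of F. DESeq2 1.42.0 was an alternative. Shares of heavy chain UMIs and of cells were compared by exact two-sided permutation over mice (scipy 1.17.1), with exact binomial 95% intervals. Coordinates and sequences are from the GRCm38 annotation and transcripts.

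The members and lists were chosen with earlier results of these data known. Named list genes are the called genes with the largest differences, up to 5 per list and comparison, with the 5 genes most like Ighm, Igkc and Jchain by Pearson r of log2(CPM + 1). Alternatives covered normalization, filters, cell sets, thinning to 500 UMIs, left-out mice and replicate blocks, plus sets chosen after seeing the data (without antibody-rich cells, crossed pairing, the 2% minimum without i4F 3, and without the 2 top lambda cells of each mouse). No doublet caller was run. Not every gene of the B cell marker subset is reported here by name.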

Additional observations from a re-analysis of the deposited data

How the results depend on the processing

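Of the member counts over all cells, i4F against WT (0 called) became 3 with DESeq2 (23.7% of all genes called) and 1 with no filter on low counts. Caerulein against WT (0) became 5 with DESeq2 (29.9%), 3 with no filter and 4 with the compared groups alone, and i4F against caerulein (0) became 7 with DESeq2 (5.4%). In the B-labelled cells, i4F against WT (0) became 5 with no filter and 2 with B_lymph labels alone (0.373% of all genes called), which takes the Follicular_B cells from i4F only. Caerulein against WT (5) became 9 with no filter, 8 with B_lymph labels alone and 1 among cells with a B cell marker UMI of the subset used in the report (0.463%). Where no share of all genes is given, the count has no background here. The causes were not tested.

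Leaving out 1 mouse gave 0 to 2 called members for i4F against WT, 0 to 6 for caerulein against WT and 0 to 2 for i4F against caerulein over all cells, and 0 to 1 and 5 to 8 in the B-labelled cells. The upper ends were reached without i4F 3. There edgeR called 49.8%, 46.4% and 1652 of 19180 of all genes over all cells, in the same order, and 0.429% and 22.5% in the B-labelled cells. Over all cells the log2 difference of i4F over WT then ranged from -0.63 to 2.05 for Ighm, -0.82 to 5.84 for Ighg3, -0.75 to 2.19 for Igkc, -1.62 to 1.21 for Jchain and -0.84 to 2.28 for Mzb1, each lowest without i4F 3. In the B-labelled cells it ranged from -0.88 to 0.16 for Ighm and -0.47 to 2.66 for Ighg3.

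Same-numbered mice did not deviate together by the correlation over genes (r = -0.04 and -0.02 for WT with i4F, -0.37 for WT with caerulein, all cells). With 2 WT and 2 caerulein mice, deviations from the group means mirror each other. Both numbers then give the same r, which cannot exclude a pairing. The labels link these mice by number only. With the replicate block, in which i4F 3 is alone and adds nothing, 1, 5 and 2 members were called over all cells and 2 and 8 in the B-labelled cells, and the i4F differences over all cells turned to -0.60 (Ighm), -0.92 (Ighg3), -0.85 (Igkc), -1.67 (Jchain) and -1.14 (Mzb1), and that of Ighg3 in B-labelled cells to -0.52. With the crossed replicate block, chosen after seeing the data, the counts were 2, 7 and 3, and 2 and 8, and the differences -0.40, -0.92, -0.40, -1.46 and -0.56, and -0.47. The share of all genes called in either block fit is not given here, so these member counts have no background and are a description.

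Other signs that turned were those of uncalled genes. For i4F against WT in B-labelled cells, Ighm went to 0.14 with the library name series as a term and, among cells with at least 500 genes, to 0.50, with Ighd at -0.17, Igkc at 0.36 and Mzb1 at 0.035. With B_lymph labels alone Igha went to -1.36 and Ighg3 to -1.40, and without antibody-rich cells Ighg3 went to -1.70. Igha of caerulein against WT over all cells went to -0.50 without antibody-rich cells.

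Differences in isotype share, in percentage points, moved most where few cells set them. Without the top cell of each mouse, IgM of i4F minus WT turned to 3.26 over all cells and 4.12 in B-labelled cells, and IgD of caerulein minus WT over all cells was -0.226. For IgD over all cells, i4F minus WT (0.339) became 3.15 by leading gene of each cell, 0.00577 among cells with at least 500 genes, 3.26 without antibody-rich cells and 1.22 outside the B labels, and caerulein minus WT (-0.0403) became -0.924, -0.288 and -4.63 under the first 3 of these. In B-labelled cells, IgD of i4F minus WT (0.298) became 4.37, -0.0642 and 4.31 under the same 3, 9.46 with B_lymph labels alone and 0.852 with cells thinned, and caerulein minus WT (0.196) became -2.78, -0.317 and -5.63, 1.38 among cells with a B cell marker UMI and -1.55 with cells thinned. Outside the B labels IgA was 10.9 higher in i4F and 28.4 higher in caerulein, and IgM of caerulein differed by -27.7. Single mice set these values, since the IgA share there ran from 0.0963% to 32.0% in i4F and from 1.52% to 55.4% in caerulein. IgA of caerulein minus WT in B-labelled cells was -0.459 by leading gene and -0.249 without antibody-rich cells. With a minimum of 2% of UMIs, antibody-rich cells differed by 1.19 points for i4F, which turned to -0.112 without i4F 3 (chosen after seeing the data), and by -0.576 for caerulein.

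With 2 or 3 mice a group, exact permutation could not reach the threshold, and the caerulein B-labelled cells held 7 Ighd UMIs in all.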
